A study of Mus musculus with 2 samples.

Results

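Potassium channel genes were examined in cultured mouse lines labelled endothelial, as the probe sets annotated to a single gene whose symbol starts with Kcn. This rule gave 167 probe sets for 84 genes, out of 34945 single-gene probe sets for 18193 genes and 45101 probe sets in all. The study hybridised 1 Affymetrix array of MS-1, a line from pancreatic microvasculature, and 1 array of SVEC4-10, a line from an axillary lymph node. Both lines are untreated, and both were made with the SV40 large T antigen, so each is an immortalised model. The endothelial label went with the markers in MS-1 but not in SVEC4-10, where 5 of 6 endothelial markers were below background (Pecam1 gave 1.27, against 4777 in MS-1) and fibroblast markers were bright (Col1a1 gave 5694, against 2.64 in MS-1). MS-1 was kept in DMEM with 5% serum and SVEC4-10 in DMEM with 10% serum, so the line and the serum cannot be told apart. With 1 array a line there is no replicate check, no test between the lines was possible, and differences are described by their size.

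Potassium channels let potassium leave the cell down its gradient and so hold the membrane potential negative. In endothelium, calcium-activated channels of small and intermediate conductance, encoded by Kcnn3 and Kcnn4, and inward rectifiers such as Kcnj2 are known to hyperpolarise the cell, which favours calcium entry and relaxes the neighbouring smooth muscle. Pore-forming alpha subunits assemble with auxiliary proteins, among them the cytoplasmic beta subunits of the Kcnab genes and the single-pass Kcne and double-pass Kcnmb membrane proteins, which change gating and surface expression.

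Of the 84 Kcn genes, 9 were at least 2-fold apart between the arrays by their representative probe set, the brightest above background. Of the 29 genes above background on either array, 3 (10.3%) were higher in SVEC4-10 and 6 (20.7%) in MS-1. The shares of all 12583 such genes were 15.3% and 12.1%. Kcnab1, the Kv beta-1 subunit, and Kcnmb4, the beta-4 subunit of the large-conductance calcium-activated (BK) channel, stood out on the SVEC4-10 side, at least 80.0-fold and at least 12.3-fold higher there, followed by Kcnab2. On the MS-1 side were Kcne3 and Kcnq1, whose proteins can form 1 channel together, Kcnh2, Kcnj11, Kcnk2 and Kcnk6, with ratios or bounds from 3.97- to 9.91-fold. By the same choice of probe set, the other 75 genes had a ratio or bound under 2-fold, had no fold or were not above background. Among them, a further probe set of the non-coding Kcnq1ot1 was at least 2.68-fold higher in MS-1. A fold written as "at least" sets the brighter signal against the background level of the dimmer array and is a lower bound, so that such genes have no order by size.

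The upstream sequences of the 3 genes at least 8-fold apart, Kcnab1, Kcne3 and Kcnmb4, are shown as the 250 bases before each start site in the RefSeq table. Such a table entry existed for 64 of the 84 genes. The arrays do not tell which start was used where a gene has several. Capitals mark the GC box GGGCGG, the CCAAT box, the AP-1 motif TGANTCA and the E-box CACGTG, searched on both strands.
Kcnab1 start 1, GRCm38.p6 chr3:64948962-64949211, plus strand: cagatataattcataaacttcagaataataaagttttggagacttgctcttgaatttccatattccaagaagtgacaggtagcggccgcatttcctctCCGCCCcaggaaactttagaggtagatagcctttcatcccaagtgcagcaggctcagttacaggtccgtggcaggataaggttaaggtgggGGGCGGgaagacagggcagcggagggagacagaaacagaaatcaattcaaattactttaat
Kcnab1 start 2, GRCm38.p6 chr3:65108764-65109013, plus strand: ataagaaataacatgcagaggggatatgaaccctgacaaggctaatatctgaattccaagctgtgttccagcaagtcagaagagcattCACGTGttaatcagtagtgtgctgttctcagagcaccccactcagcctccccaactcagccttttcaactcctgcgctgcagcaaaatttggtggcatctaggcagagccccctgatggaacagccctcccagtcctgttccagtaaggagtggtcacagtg
Kcnab1 start 3, GRCm38.p6 chr3:65187853-65188102, plus strand: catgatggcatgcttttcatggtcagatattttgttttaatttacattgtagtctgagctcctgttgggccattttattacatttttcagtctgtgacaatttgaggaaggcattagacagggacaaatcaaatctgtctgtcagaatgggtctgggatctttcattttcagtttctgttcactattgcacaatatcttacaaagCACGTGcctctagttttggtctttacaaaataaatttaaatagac
Kcne3 start 1, GRCm38.p6 chr7:100176420-100176669, plus strand: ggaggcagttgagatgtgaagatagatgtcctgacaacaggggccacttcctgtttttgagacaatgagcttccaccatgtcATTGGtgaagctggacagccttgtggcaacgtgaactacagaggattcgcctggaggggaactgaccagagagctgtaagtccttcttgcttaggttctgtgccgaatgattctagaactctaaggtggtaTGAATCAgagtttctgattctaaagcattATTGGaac
Kcne3 start 2, GRCm38.p6 chr7:100178433-100178682, plus strand: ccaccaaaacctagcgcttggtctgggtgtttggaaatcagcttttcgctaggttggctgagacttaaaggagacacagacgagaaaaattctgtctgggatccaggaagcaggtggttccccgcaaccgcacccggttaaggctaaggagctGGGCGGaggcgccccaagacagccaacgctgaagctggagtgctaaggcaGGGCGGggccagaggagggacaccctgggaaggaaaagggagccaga
Kcnmb4 start 1, GRCm38.p6 chr10:116473524-116473773, minus strand: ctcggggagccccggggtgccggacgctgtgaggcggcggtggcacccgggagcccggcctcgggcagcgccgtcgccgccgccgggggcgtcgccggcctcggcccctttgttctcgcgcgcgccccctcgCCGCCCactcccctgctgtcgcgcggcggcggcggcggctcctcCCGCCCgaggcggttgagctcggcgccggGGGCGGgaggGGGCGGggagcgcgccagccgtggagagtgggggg

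No motif was common to all 6 windows. GC boxes were found 4 times before Kcnmb4, 2 times before the first start of Kcnab1 and 2 times before the second start of Kcne3, and 33.0% of all 32536 distinct windows of this length held at least 1. The E-box stood once before each of the other Kcnab1 starts, against 6.04% of all windows. The first start of Kcne3 had the CCAAT box 2 times (in 33.8% of all windows) and AP-1 once (in 6.73%). No TATA box (TATAAA, in 12.3% of windows) and no ETS motif (CCGGAAG, in 6.95%) was found in the 6 windows, and no listed motifs overlapped. The Kcnmb4 window held 43 CpG dinucleotides at a GC content of 83.6%, against medians of 6 and 52.4% over all windows. The Kcnab1 windows held 6, 2 and 1 CpG dinucleotides, and the Kcne3 windows 3 and 10. A match is a description of the letters only.

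Most potassium channel probe sets gave no signal above background. The background level was set from 129 probe sets for odorant, pheromone and taste receptors and hair keratin-associated proteins, whose 95th percentile was 16.3 in MS-1 and 17.6 in SVEC4-10. Above it lay 27 of 167 Kcn probe sets (16.2%) in MS-1, against 59.6% of all single-gene probe sets, and 24 (14.4%) in SVEC4-10, against 58.5%. By construction 7 of the 129 reference probe sets (5.43%) exceeded it on each array. Of the Kcn probe sets, 13 passed on both arrays, 14 on the MS-1 array only, 11 on the SVEC4-10 array only and 129 on neither. The same split over all single-gene probe sets is not given here.

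Counted by gene, 21 of 84 (25.0%) exceeded background in MS-1 and 19 (22.6%) in SVEC4-10, where the shares of all genes were 63.5% and 62.0%. Both arrays detected 11 of these genes, the MS-1 array alone 10 and the SVEC4-10 array alone 8, which makes 29 measured genes and leaves 55 not measured. The measured share was 34.5% of the Kcn genes, against 69.2% of all genes. Of all 12583 measured genes, 11557 were above background in MS-1 and 11281 in SVEC4-10, so most of them passed on both arrays. Of the Kcn probe sets that passed, 15 of 27 in MS-1 (55.6%) and 16 of 24 in SVEC4-10 (66.7%) lay under 2 times the background, against 18.2% and 16.8% of all single-gene probe sets that passed. The median Kcn signal was 5.16 and 4.65, against 29.7 and 31.7 for all single-gene probe sets. A transcript that is absent and a probe set that fails to detect it cannot be told apart in these values, nor can fewer expressing cells and less RNA per cell.

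**Figure D1:**
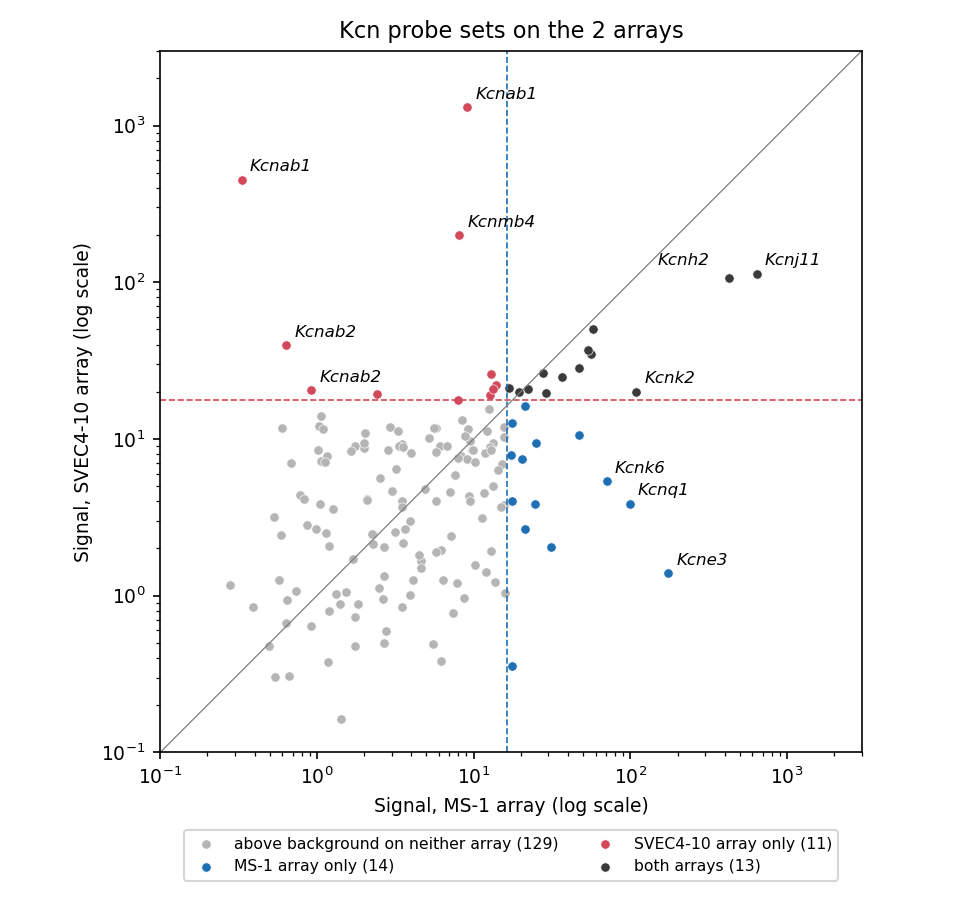
Signal of each of the 167 Kcn probe sets on the MS-1 array (x axis) and the SVEC4-10 array (y axis), both on log scales without units; dashed lines are the background of each array and the diagonal marks equal signal. Most points (129) lie under both lines, 2 Kcnab1 points and the Kcnmb4 point lie high on the SVEC4-10 side, and Kcne3, Kcnq1 and Kcnk6 lie on the MS-1 side.

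Of the 29 measured genes, 3 (10.3%) were at least 2-fold higher in SVEC4-10, against 15.3% of all 12583 measured genes, and 6 (20.7%) in MS-1, against 12.1%. At 4-fold the counts were 2 (6.90%) against 5.78%, and 5 (17.2%) against 4.30%. The median log2 ratio of SVEC4-10 over MS-1 was -0.21 for the measured Kcn genes and 0.018 for all measured genes, with bounds taken at their value. Of the 29 Kcn ratios, 18 are bounds. With so few members above background, each of these shares rests on a handful of genes. A gene at background on 1 array could reach 2-fold only with a signal above 35.2 in MS-1 or 32.6 in SVEC4-10, and of the 20 measured genes under 2-fold, 12 have a bound only, which does not show that they lie within 2-fold. Of these 20, 17 were under 2 times the background on both arrays.

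Probe sets of 1 gene gave log2 ratios with a standard deviation of 0.48 over 4813 genes, and of 0.56 in the dimmest of 3 equal groups of genes, and this is called the error here. It holds no variation between cultures. The spiked-in poly-A controls (21 probe sets) read 1.43-fold higher in SVEC4-10, and scaling to them would lower every log2 ratio by 0.51 and move the median of all genes to -0.49. None of the 9 genes could change direction under that scaling, since all are at least 2-fold apart. The count towards MS-1 would rise from 6 to 11 at 2-fold. The count towards SVEC4-10 would fall from 3 to 2, with Kcnab2 at a log2 ratio of 0.76. The share of all genes at 2-fold is not given here for that scaling, so the count of 11 has no comparison.

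The cell type markers moved with the line. All 6 endothelial markers examined were higher in MS-1, with a summed signal of 15917 against 61.5, and 5 of them were below background in SVEC4-10. By the representative probe set, all 5 fibroblast and mesenchymal markers, such as Dcn and Col1a1, were below background in MS-1 and higher in SVEC4-10. Their summed signal was 43.1 against 23786. The weakest probe sets of Col1a2 and Pdgfra had log2 ratios of 0.39 and 0.71 only. Of 4 smooth muscle markers, Acta2 and Tagln were higher in SVEC4-10 (list sum 59.9 against 10258), and Myh11 and Cnn1 were above background on neither array. Of 5 neuronal markers, 2 were measured, with bounds under 2-fold (sums 59.8 and 72.3). Of 3 cardiac markers, Tnnt2 alone was measured, 6.09-fold higher in SVEC4-10 (sums 42.0 and 226), and of 4 leukocyte markers, Cd68 and Lcp1 were higher in MS-1 while Ptprc was above background on neither array (sums 3897 and 70.1). The part of this difference in the channel results was not tested.

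**Figure D2:**
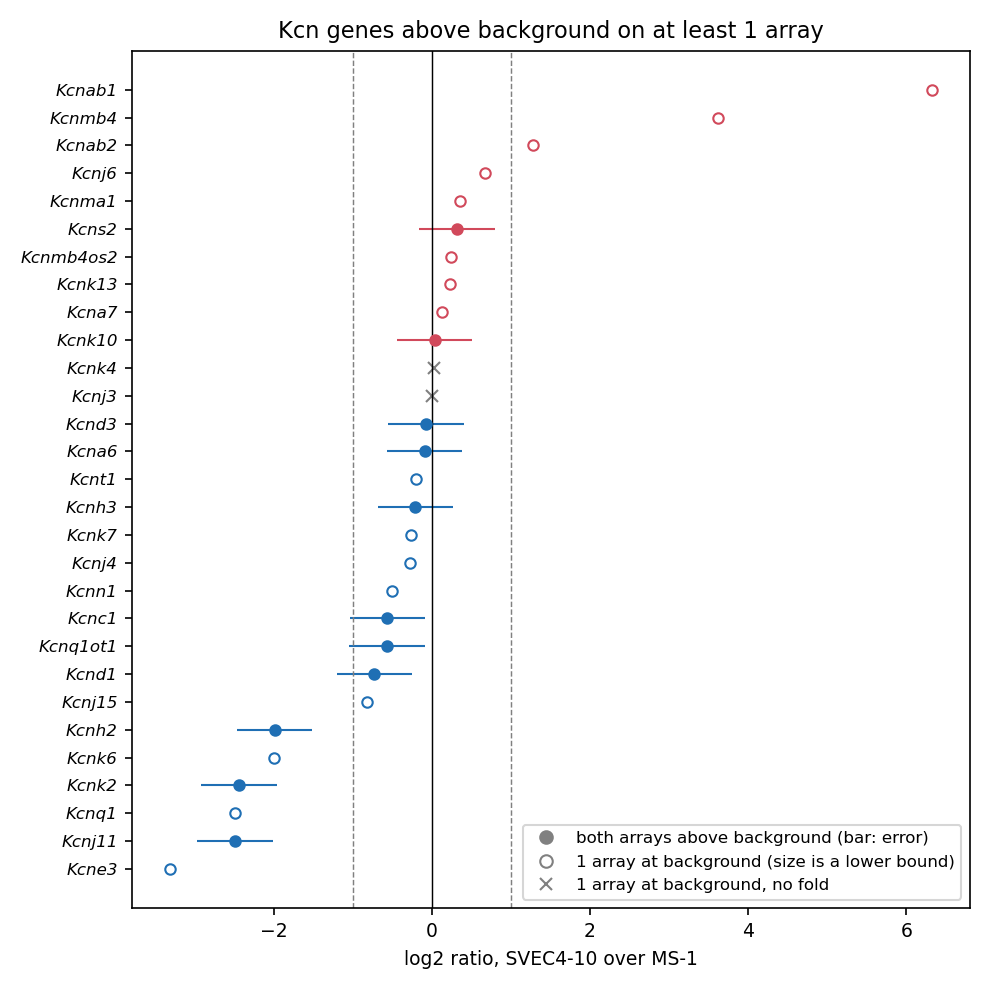
Log2 ratio of SVEC4-10 over MS-1 for the 29 Kcn genes above background on at least 1 array, by the representative probe set; filled points have both arrays above background with the probe set error of 0.48 as a bar, open points, coloured by the array above background, are lower bounds in size, and crosses (Kcnj3 and Kcnk4, barely above background in MS-1 only) have no fold. Dashed lines mark 2-fold; 3 genes lie beyond the right line, all as bounds, and 6 beyond the left line, of which Kcne3, Kcnk6 and Kcnq1 are bounds.

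Of 12 genes for auxiliary proteins of voltage-gated channels, 3 were measured, Kcnab1 and Kcnab2 in SVEC4-10 only and Kcne3 in MS-1 only. Kcnab1 encodes a cytoplasmic beta subunit that speeds the inactivation of Kv1 channels. Its probe sets gave signals of 1304 and 452 in SVEC4-10 and of 9.06 and 0.331 in MS-1. Both probe sets were thus bright on 1 array and below background on the other, and the ratio was at least 80.0-fold by the brighter and at least 27.7-fold by the dimmer. Both belong to the class whose probes can match several transcripts of 1 gene.

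Kcnab2, the Kv beta-2 subunit, gave signals of 39.5 and 20.5 in SVEC4-10 and of 0.635 and 0.920 in MS-1. Both probe sets were again above background on the SVEC4-10 array only, but close to it: the ratios were at least 2.42-fold and at least 1.26-fold. The third beta subunit gene, Kcnab3, was above background on neither array. The alpha subunits that Kcnab1 is best known to bind were also not measured: Kcna1, Kcna2, Kcna3, Kcna4 and Kcna5 had signals of at most 15.5 on either array in their 12 probe sets.

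Kcne3, a single-pass subunit that holds Kcnq1 channels open, gave a signal of 175 in MS-1 and 1.39 in SVEC4-10, at least 9.91-fold higher in MS-1. Kcnq1, the alpha subunit with which it assembles in epithelia, gave 98.8 in MS-1 and 3.86 in SVEC4-10, at least 5.61-fold higher in MS-1. Both were above background in MS-1 and below it in SVEC4-10, and a link to any of the cell type markers was not tested. Each rests on 1 probe set. The remaining Kcne genes, Kcne1, Kcne1l, Kcne2 and Kcne4, and the Kv4-binding Kcnip1 to Kcnip4 were above background on neither array.

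**Figure D3:**
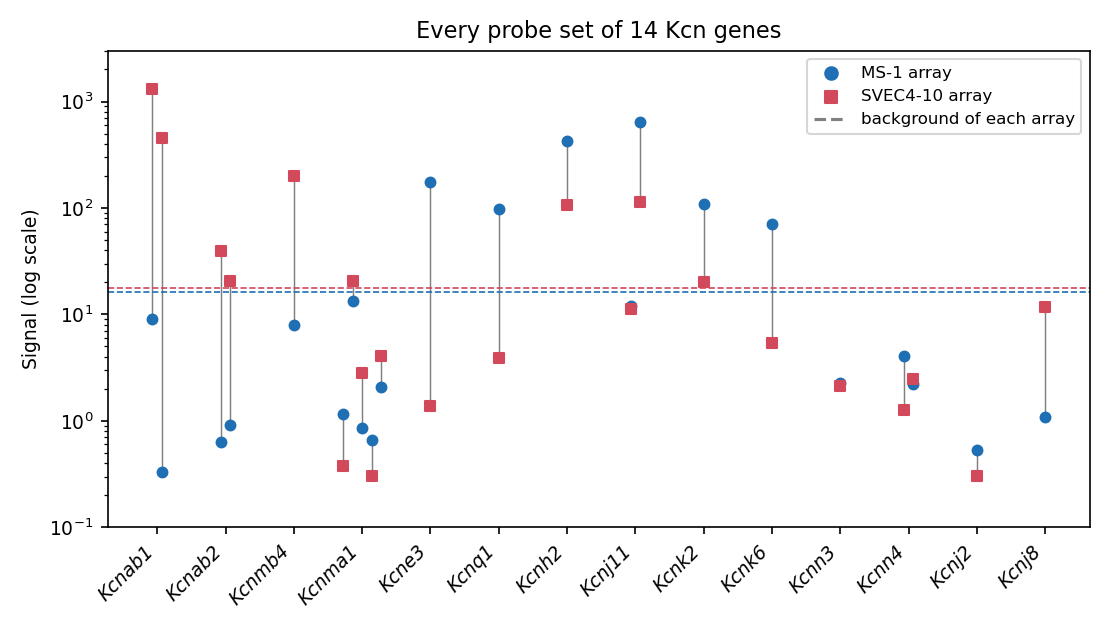
Signal (log scale) of every probe set of 14 Kcn genes on the MS-1 array (circles) and the SVEC4-10 array (squares), with a line joining the values of 1 probe set and dashed lines for the background of each array. Both probe sets of Kcnab1 span the background lines, 1 of 2 for Kcnj11 is bright, and all probe sets of Kcnn3, Kcnn4, Kcnj2 and Kcnj8 lie under the lines.

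Among the voltage-gated alpha subunits, 9 of 31 genes were measured, 8 on each array, and 2 of the 9 were at least 2-fold higher in MS-1. Besides Kcnq1 this was Kcnh2, the alpha subunit of the rapid delayed rectifier of heart (ERG1), with signals of 424 in MS-1 and 107 in SVEC4-10. Its 1 probe set was well above background on both arrays, and the ratio of 3.97-fold (log2 -1.99, error 0.48) exceeded the error. The other 7 had ratios or bounds under 2-fold. Kcnh3, a brain member of the same family, gave signals of 54.0 to 57.8 in MS-1 and 34.8 to 49.9 in SVEC4-10 at 3 of its 4 probe sets, with log2 ratios from -0.69 to -0.21.

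Kcnd1, which carries an A-type current, gave 47.1 and 28.5 at 1 of 3 probe sets (MS-1 first), a log2 ratio of -0.73. Kcna6, Kcnc1, Kcnd3 and Kcns2 were above background on both arrays, at signals of 16.8 to 28.9, and Kcna7 on the SVEC4-10 array only, at 17.8. These values are near background. Of the ratios with both arrays above background, none exceeds the error of 0.48 except Kcnd1 at -0.73 and Kcnc1 at -0.56. The log2 value of Kcna7, 0.13, is a lower bound, which does not show that it lies within the error. The error of the dimmest group of genes, 0.56, is about the size of the Kcnc1 ratio. A second Kcnc1 probe set, at 17.5 in MS-1 and 4.00 in SVEC4-10, was too near background for a fold. The other 22 alpha subunit genes were not measured: Kcna1 to Kcna5, Kcnc2, Kcnc4, Kcnd2, Kcnf1, Kcng1, Kcng2, Kcng4, Kcnh1, Kcnh5, Kcnh7, Kcnh8, Kcnq3, Kcnq5, Kcns1, Kcns3, Kcnv1 and Kcnv2.

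The inward rectifiers had 5 of 15 genes measured, 4 in MS-1 and 2 in SVEC4-10. Kcnj11, the pore of ATP-sensitive channels of pancreatic beta cells and muscle, gave signals of 638 in MS-1 and 113 in SVEC4-10 at 1 probe set, 5.63-fold higher in MS-1 (log2 -2.49, error 0.48). Its second probe set was below background on both arrays, at 12.1 and 11.3, so the 2 probe sets disagree on whether the gene is detected at all. Abcc8, the sulfonylurea receptor that completes the beta cell channel, reached 21.5 in MS-1, just above background, and 10.5 in SVEC4-10.

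Kcnj8, the pore of the vascular ATP-sensitive channel, and its receptor Abcc9 were above background on neither array. Kcnj8 gave 1.09 in MS-1 and 11.6 in SVEC4-10. The same held for Kcnj2, the strong inward rectifier of endothelium, at 0.538 and 0.301 in its 1 probe set. Kcnj15 (31.1 in MS-1, 2.04 in SVEC4-10), Kcnj4 and Kcnj6 had bounds under 2-fold, and Kcnj3, at 17.5 in MS-1 and 12.7 in SVEC4-10, was too near background for a fold. Kcnj1, Kcnj5, Kcnj9, Kcnj10, Kcnj12, Kcnj13, Kcnj14 and Kcnj16 were not measured.

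The two-pore channels, which carry the resting leak current, had 6 of 12 genes measured, 5 in MS-1 and 3 in SVEC4-10. Kcnk2 (TREK-1), opened by stretch and lipids, gave 109 in MS-1 and 20.1 in SVEC4-10, a 5.44-fold difference (log2 -2.44, error 0.48). The SVEC4-10 signal was only slightly above background. Kcnk6 (TWIK-2) gave 70.5 in MS-1 and 5.38 in SVEC4-10, at least 4.00-fold higher in MS-1, a bound on the edge of the 4-fold limit.

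Kcnk4, Kcnk7, Kcnk10 and Kcnk13 lay between 2.65 and 21.1 on either array by their representative probe sets, with ratios or bounds under 2-fold for Kcnk7, Kcnk10 and Kcnk13 and no fold for Kcnk4. Kcnk1, Kcnk3, Kcnk5, Kcnk12, Kcnk15 and Kcnk16 were not measured. Neither of the 2 genes apart had a second probe set, so their ratios have no check within the array.

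Calcium-activated channels include the types best known from endothelium, and their alpha subunits gave little signal in either line. Kcnn4, the intermediate-conductance channel, had 2 probe sets at 4.10 and 2.24 in MS-1 and 1.26 and 2.47 in SVEC4-10. Kcnn3, the small-conductance channel of endothelium, had 1 probe set at 2.28 and 2.12, and Kcnn2 had 1 at 2.03 and 10.9. None of these was above background. Kcnn1 was just above it in MS-1 at both probe sets (24.6 and 24.9) and below it in SVEC4-10 (3.83 and 9.36), at least 1.42-fold higher in MS-1 by the brighter.

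Kcnmb4, which slows BK channels and is known mainly from brain, gave 201 in SVEC4-10 and 8.04 in MS-1, at least 12.3-fold higher in SVEC4-10. Kcnma1, the only pore-forming subunit of BK channels, passed background at 1 of 5 probe sets and only in SVEC4-10, at 20.8 against 13.3 in MS-1, and its 4 other probe sets gave at most 4.10 on either array. Kcnmb1, the smooth muscle BK subunit, and Kcnmb2 were above background on neither array, as were Lrrc26, Lrrc38 and Lrrc52, the gamma subunits examined.

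Of the 3 sodium-activated and sperm channel genes, Kcnt1 reached 20.3 in MS-1 at 1 of 3 probe sets, and Kcnt2 and Kcnu1 were not measured. The prefix also takes in 3 non-coding RNAs, which are no channels. Kcnq1ot1, the imprinted antisense RNA inside Kcnq1, was above background at 2 of 6 probe sets: 1 gave 36.8 in MS-1 and 24.9 in SVEC4-10 (log2 -0.57), and the other 47.2 and 10.5 (at least 2.68-fold). Kcnmb4os2, an opposite-strand RNA at Kcnmb4, gave 19.2 in SVEC4-10 and 2.43 in MS-1, and Kcnmb4os1 was not measured. Whether the probe sets of such overlapping genes share signal was not tested.

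**Figure D4:**
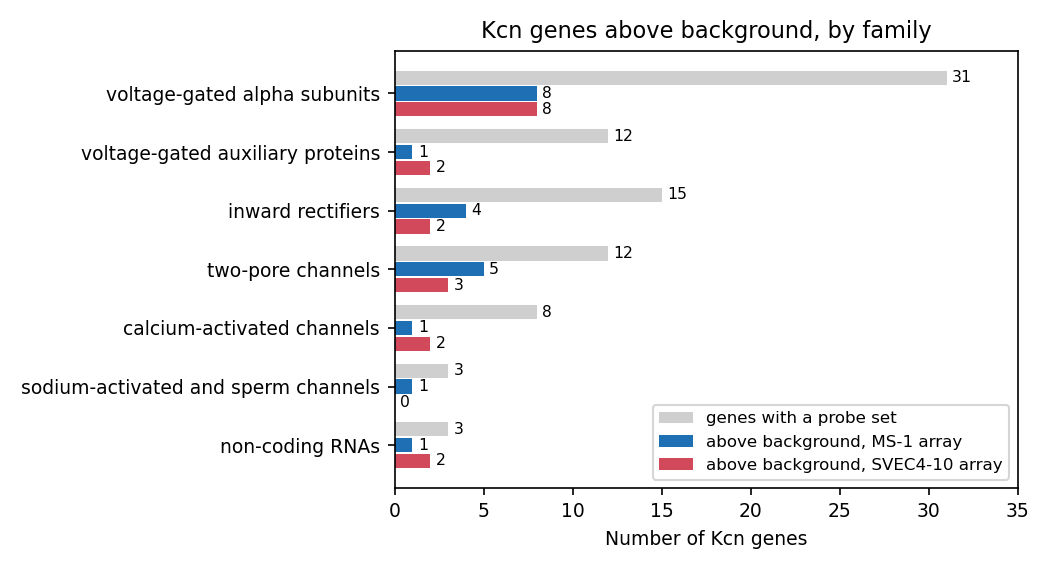
Number of Kcn genes with a probe set (grey) and number above background on the MS-1 and SVEC4-10 arrays, by family; bars start at 0. The largest family, 31 voltage-gated alpha subunits, has 8 genes above background on each array, and the two-pore channels have 5 and 3 of 12.

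Of 18 measured Kcn genes with several probe sets, 3 (16.7%; Kcnab1, Kcnab2 and Kcnn1) had all of them above background on an array, against 58.4% of all 7594 such genes, and 10 (55.6%) had 1 only, against 19.5%. The other 11 measured genes had 1 probe set each, among them Kcne3, Kcnh2, Kcnk2, Kcnk6, Kcnmb4 and Kcnq1. The ratios of these 6 genes therefore have no second measurement, while that of Kcnab1 does.

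Genes that work with potassium channels were taken from a list of 55 names, of which 42 had a single-gene probe set and 25 were measured. Of the 25, 5 were at least 2-fold higher in SVEC4-10 and 8 in MS-1, and 12 had a ratio or bound under 2-fold or no fold, with a median log2 ratio of -0.08, against 15.3% and 12.1% of all measured genes at that limit. None of these 13 turned direction under the other scalings. Those that shift all log2 ratios alike, by at most 0.51, could not turn a gene at least 2-fold apart. Genes of calcium entry and release, which feed calcium-activated channels, had 10 of 14 names measured, 5 of them at least 2-fold higher in MS-1 and 1 in SVEC4-10.

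The store-operated channel genes Orai1, Orai2 and Orai3 were 4.21-, 3.59- and 2.90-fold higher in MS-1. Orai1, for example, gave 519 in MS-1 and 124 in SVEC4-10, and the weakest probe set of Orai2 had a log2 ratio of -0.63. Stim1, the store sensor that opens them, was within 2-fold (log2 0.54), and Stim2 and the inositol trisphosphate receptor Itpr2 were 2.08- and 3.58-fold higher in MS-1 but had a further probe set near 0 (log2 0.041 and 0.091). Trpc1 was the gene of this list at least 2-fold higher in SVEC4-10, at least 4.92-fold by 1 probe set. Its weaker probe set had a log2 ratio of 0.88. Piezo1, a stretch-activated channel, gave 907 and 857.

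The sodium-potassium pump, which builds the gradient, had 5 of 13 names measured. Its beta-1 subunit Atp1b1 was 4.91-fold higher in SVEC4-10 (608 in MS-1, 2983 in SVEC4-10), with probe sets from 0.80 to 3.68 on the log2 scale. Fxyd5, a regulator of the pump, was 25.7-fold higher in MS-1 (2211 against 85.9), and Atp1b3 gave 1401 and 1534. The signals of this list were far above background at Atp1b1, Atp1b3 and, in MS-1, Fxyd5.

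Of the chloride cotransporters, Slc12a2 was 2.54-fold higher in MS-1 and Slc12a7 was 2.59-fold higher in SVEC4-10, while Slc12a1 was at least 2.00-fold higher in MS-1 at a signal of 35.3. Hcn2, a pacemaker channel, was 3.15-fold higher in SVEC4-10 (24.4 and 77.0). Gja1, the connexin 43 gene that couples cells electrically, was 2.59-fold higher in SVEC4-10, with probe sets from 0.24 to 2.14 on the log2 scale, and the endothelial connexins Gja4 and Gja5 were above background on neither array. The Kv4 partners Dpp6 and Dpp10 were likewise above background on neither.

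**Figure D5:**
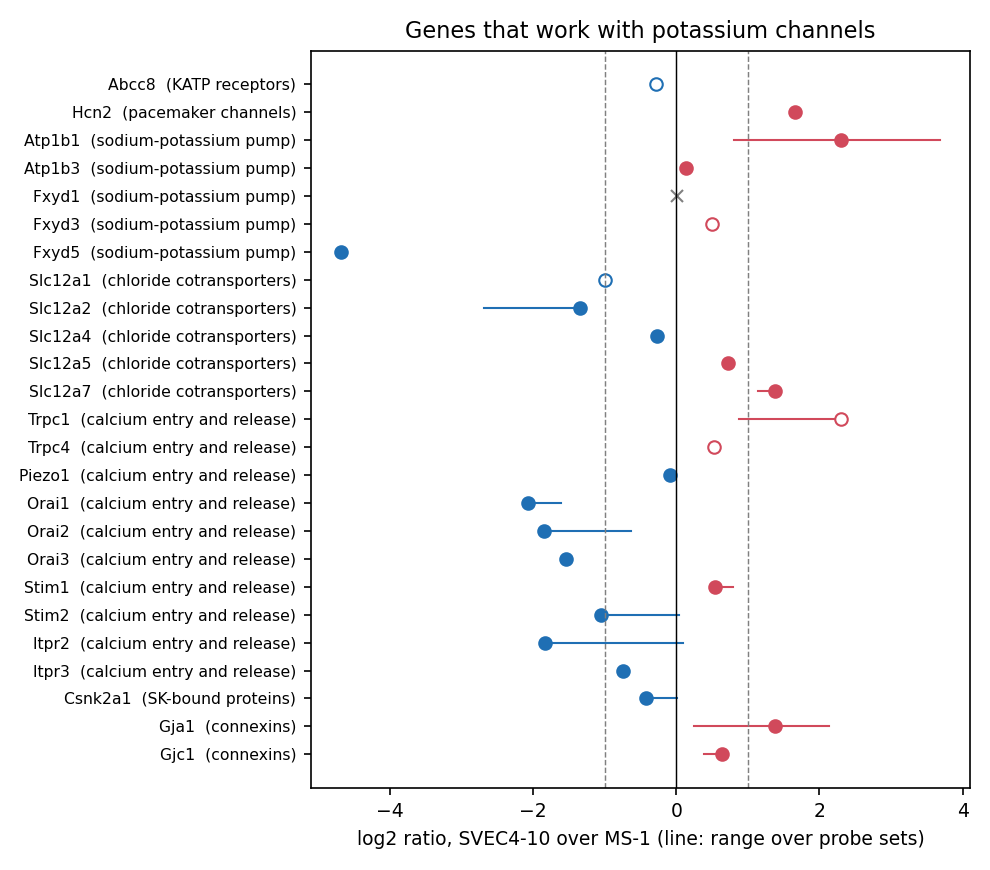
Log2 ratio of SVEC4-10 over MS-1 for 25 measured genes that work with potassium channels; points are the representative probe set, lines the range over measured probe sets, open points lower bounds, and the cross (Fxyd1) has no fold. The 3 Orai genes lie left of the 2-fold line by their points, and Fxyd5, above background on both arrays, lies at -4.68.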

How the data were processed

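The authors deposited 1 linear intensity for each probe set on each array, from biotinylated cRNA of 6 µg total RNA, per the labels' protocols. The software behind these values is not given in the sources used here. A 2% trimmed mean was 150.001 on each array, which shows a common scaling, and no further scaling was applied.

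Names came from the platform annotation, updated through the RefSeq table of GRCm38.p6 (all 167 Kcn probe sets matched, and 0 changed symbol). Values were raised to the background of their array before the log2 ratio. A gene counted as measured if any probe set exceeded background on either array. Its representative was the brightest such probe set by mean log2 signal, with _x_at probe sets used only where no other was measured. For the error, the spread of differences between the 2 brightest probe sets of each gene was divided by the square root of 2. Signal was ranked across probe sets only to choose the representatives and the genes named for their signal; it does not order transcript levels.

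Every measured Kcn gene was named, with values for those at least 2-fold apart, the 8 of highest signal and selected others. The members and lists were chosen with earlier results of these data known. Alternatives were run on scaling, background, probe set choice and naming. The steps were tested on simulated data in which only genes of high signal were changed. Recovery of a difference at the lower signal of most measured Kcn genes was not tested. Python 3.11.15 with pandas 2.3.3 and numpy 2.4.6 was used. The number of arrays limits the precision.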

Additional observations from a re-analysis of the deposited data

How the results depend on the processing

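No paired analysis was possible because each line has 1 array. Of 64 recomputed counts and medians, 52 stayed within 1.5 times the reported count or within the error of the median. Background set most of the others. With background at the 40th percentile of the whole array, 35 and 31 Kcn genes were above background on the MS-1 and SVEC4-10 arrays, and 9 and 6 with background doubled, against 21 and 19. With background doubled, 2 genes in place of 5 were at least 4-fold higher in MS-1, and the median log2 ratio was -0.71. With no background floor, 4 genes were at least 4-fold and 6 at least 2-fold higher in SVEC4-10, and 11 at least 2-fold higher in MS-1. Scaled to the poly-A controls, 11 genes were at least 2-fold higher in MS-1 and the median was -0.72, with that of all genes at -0.49. Shares of all genes at these limits are not given for the alternatives. Without the _a_at, _s_at and _x_at probe sets, 1 gene was at least 4-fold higher in SVEC4-10, since Kcnab1 then had no probe set. Kcne3 and Kcnh2 also had none left, and 4 genes in place of 6 were at least 2-fold higher in MS-1. Of 239 recomputed ratios of single genes, 173 moved by less than the error, 66 by more, and 0 of those for genes at least 2-fold apart changed sign. The shift of the poly-A scaling, 0.51, could not have changed the sign of a gene at least 2-fold apart. Of these 9 genes, Kcnab2 fell under 2-fold in 4 of 9 alternatives (lowest log2 0.28), and the others stayed at least 2-fold in every alternative that kept a probe set of theirs, Kcnk6 only just when background was doubled. Bounds move with background by construction.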
